A study of Mus musculus with 15 samples.

Results

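Alcohol, aldehyde and aldo-keto dehydrogenases are the enzymes with which the liver handles alcohols and carbonyl compounds. They were followed here as the protein-coding genes whose symbol begins with Adh, Aldh or Akr and a number, leaving out Akr1d1. This gave 41 genes of the 24965 in the authors' deposited table: 6 Adh, 20 Aldh and 15 Akr genes, each on 1 row.

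The livers came from 15 male C57BL/6J mice, 9 weeks old, all with floxed alleles of Gata4, which encodes a zinc finger transcription factor. Mice were injected at 8 weeks of age with AAV8, an adeno-associated virus that reaches the liver. The virus of the Gata4LKO group carried Cre behind Tbg, a promoter of hepatocytes, and that of the control group was empty. Mice were killed 7 days later, after a fast of 12 h (4 Gata4LKO and 4 control mice) or after a fast of 12 h and 12 h of refeeding with a diet of 69% sucrose and 10% fat (3 Gata4LKO and 4 control mice). The deposited comparison was read as Gata4LKO minus control in fasted livers, as described with the processing, and every direction given here rests on that reading. The comparison addresses what changed in the liver after the virus meant to remove Gata4 from hepatocytes. Its control virus carried no Cre, so Cre and the loss of Gata4 cannot be told apart. The table holds 1 mean over all libraries and 1 effect per gene, so that values of single livers, and of refed livers, are not given. An error written after ± is the standard error (SE) of the authors' model.

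Alcohol dehydrogenases (ADH) oxidise alcohols such as ethanol and retinol to aldehydes, with NAD as the cofactor. Aldehyde dehydrogenases (ALDH) oxidise the aldehydes to acids, among them acetaldehyde to acetate and retinal to retinoic acid, and several work within the breakdown of amino acids, folate and choline. Aldo-keto reductases (AKR) mostly run the other way with NADPH, turning aldehydes, sugars and ketosteroids into alcohols.

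A gene was called where the deposited adjusted p was under 0.05. Of the 41 genes, 31 had a deposited adjusted p. Of these, 4 fell in Gata4LKO livers, 0 rose and 27 did not pass. The 4 were Adh1, Aldh1a7, Aldh1b1 and Akr1b3, so that each of the 3 families had at least 1. They make up 12.9% of the tested members, beside 2.19% of all 13335 tested genes called in either direction, 1.60% called lower and 0.585% called higher. Among protein-coding genes with a mean of at least 100 normalized counts the background was 2.64%, and 3 of the 25 members at that level (12.0%) were called. At an unadjusted p under 0.05, 9 of 31 members passed, 4 lower and 5 higher, beside 11.4% of all tested genes. A log2 fold change past 0.5 in either direction was seen in 3 of 31 members, beside 8.12% of all tested genes. The tested members had a median log2 fold change of 0.03, against 0.01 over every tested gene.

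Gata4 itself was not called in the authors' deposited table: at a mean of 326.9 normalized counts its log2 fold change was 0.31 ± 0.15 (unadjusted p 0.0324, adjusted p 0.361, DESeq2). This does not bear out the reading of the table as the effect of genotype, which rests on the table's name. The labels do not name the floxed exons, and reads summed over a gene cannot show whether part of it was deleted. The groups are therefore called by their labels. The tissue was checked against markers: the hepatocyte gene Alb stood at 1107250 normalized counts, and of 6 hepatocyte markers 1, Apoa1, was called, at -0.48 ± 0.11 by the authors' deposited table (adjusted p 0.00134, DESeq2). Summed means were 2602.6 for 6 stellate cell markers, 2291.0 for 6 endothelial, 1629.9 for 6 Kupffer cell, 552.6 for 6 cholangiocyte and 35.8 for 6 lymphocyte markers, and 0 of the 23 of these markers with an adjusted p were called by DESeq2. At an unadjusted p under 0.05 stood 2 endothelial, 1 Kupffer cell and 1 lymphocyte marker. All 6 Kupffer cell markers had negative log2 fold changes, between -0.33 and -0.12 in the authors' deposited table, and their part in the falls described here was not tested. In bulk liver, fewer cells of a type and less RNA per cell cannot be told apart.

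The members span a wide range of abundance. Levels between genes are compared per kilobase (kb) of the longest principal transcript in GENCODE M21, as a mean over all libraries. Aldh1a1 was the most abundant member at 12588 normalized counts per kb, followed by Akr1c6 at 10212, Adh1 at 9714 and Aldh2 at 8330 normalized counts per kb. The 41 genes together made up 1.02% of all normalized counts, and 5 of them held 61.1% of that sum. Among the 4 called genes, Adh1 stood near the top and Aldh1a7 in the upper part of the order, at 1815 normalized counts per kb. Aldh1b1 was lower, at 347.2, and Akr1b3 lay among the scarce members at 26.3 normalized counts per kb. These means pool fasted and refed livers of both groups and carry no error of their own in the table.

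**Figure D1:**
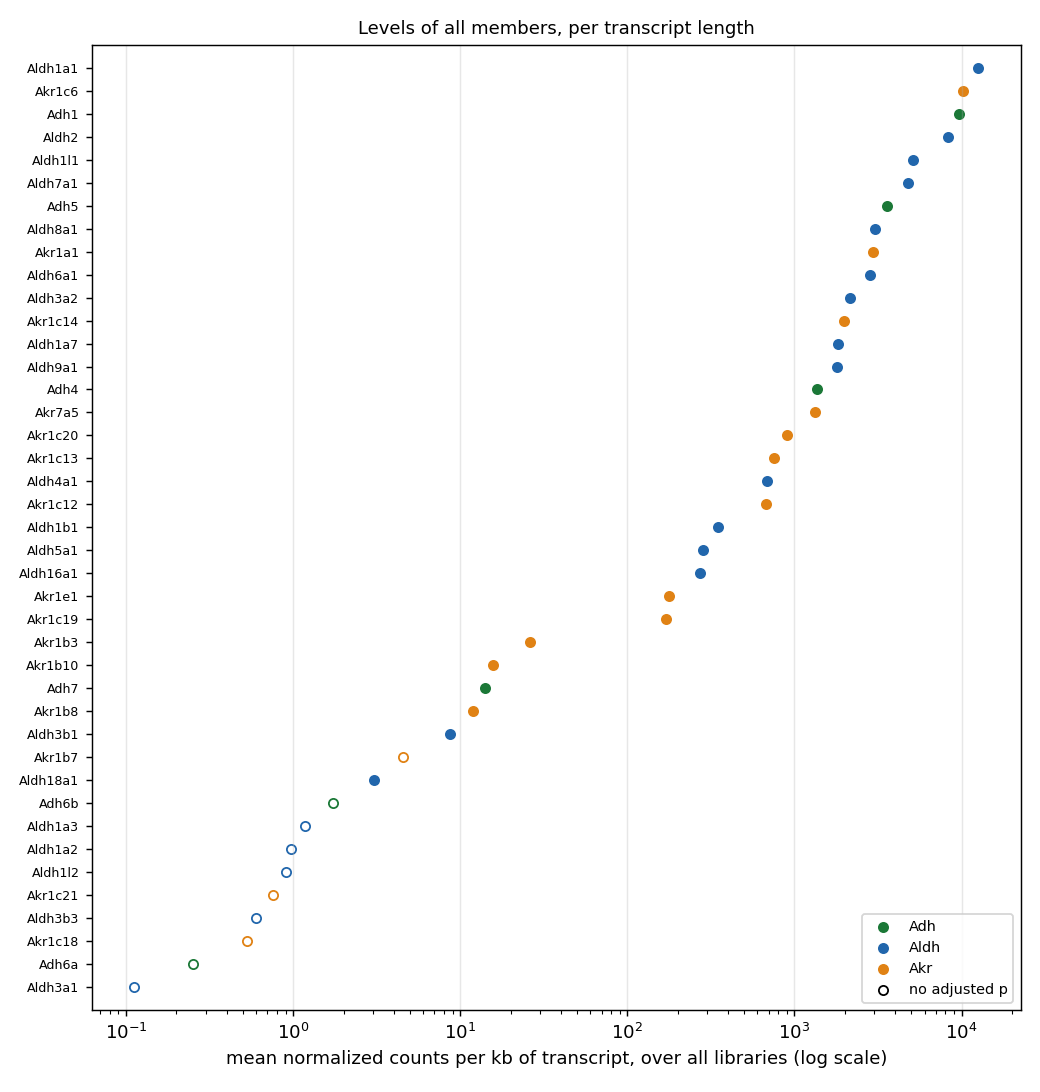
Mean normalized counts per kb of transcript (log scale) of all 41 members over all libraries, coloured by family; open circles are the 10 members with no adjusted p. Aldh1a1, at 12588, is the highest, and the open circles all lie at or below 4.55.

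Promoter sequences are shown for 3 of the 4 called genes, all but Akr1b3, since the virus was meant to remove a factor that binds GATA motifs. The RefSeq windows (GRCm38.p6) run from 250 bases before to 50 bases after the start site, 5′ to 3′ on the gene's strand. Each is the first listed window of its gene. They are chr3:138277335-138277634 (+) for Adh1, chr19:20727507-20727806 (-) for Aldh1a7 and chr4:45798772-45799071 (+) for Aldh1b1. The Adh1 window lies inside the GENCODE M21 span of the gene, which begins upstream at 138260991. Sequence before that base was not searched. Capitals mark GATA motifs, searched on both strands as GATA with A or T before it and A or G after it.
Adh1: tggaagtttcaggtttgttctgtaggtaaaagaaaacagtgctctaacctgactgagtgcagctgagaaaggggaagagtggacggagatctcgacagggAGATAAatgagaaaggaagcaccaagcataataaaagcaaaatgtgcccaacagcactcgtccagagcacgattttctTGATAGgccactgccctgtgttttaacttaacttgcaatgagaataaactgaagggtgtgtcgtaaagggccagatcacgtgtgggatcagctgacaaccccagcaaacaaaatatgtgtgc
Aldh1a7: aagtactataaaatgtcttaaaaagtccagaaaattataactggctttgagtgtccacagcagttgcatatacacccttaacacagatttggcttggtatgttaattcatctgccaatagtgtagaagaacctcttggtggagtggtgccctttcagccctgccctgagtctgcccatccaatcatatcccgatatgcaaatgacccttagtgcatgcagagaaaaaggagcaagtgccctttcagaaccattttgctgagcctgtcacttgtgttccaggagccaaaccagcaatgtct
Aldh1b1: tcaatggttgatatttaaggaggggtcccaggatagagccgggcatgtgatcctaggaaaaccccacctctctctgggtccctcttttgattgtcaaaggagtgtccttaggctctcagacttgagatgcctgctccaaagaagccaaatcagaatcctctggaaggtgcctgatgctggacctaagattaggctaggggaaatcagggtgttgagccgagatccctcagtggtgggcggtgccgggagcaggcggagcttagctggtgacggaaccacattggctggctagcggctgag

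The Adh1 window held 2 GATA strings, 150 and 72 bases before its RefSeq start site, and the windows of Aldh1a7 and Aldh1b1 held 0. Of 27 tested members with a window, 8 (29.6%) held at least 1 such string, beside 30.2% of the windows of 27025 genes. The antioxidant response element, searched as TGACNNNGC, was in 2 of the 27 (7.41%), Akr1c19 and Aldh9a1, beside 12.5% of all windows. A match is a description of the letters and no evidence of binding.

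Among the alcohol dehydrogenases 1 of 4 tested members fell. Adh1 (ENSMUSG00000074207, chromosome 3, 138260991 to 138290698, mm10) encodes the class I enzyme that carries most ethanol oxidation in the liver and also oxidises retinol. Its mean was 14493 normalized counts, and its log2 fold change -0.59 ± 0.11 by the authors' deposited table, with an adjusted p of 2.38e-05 (DESeq2). The transcript fell by 33.4%, with a 95% interval of the log2 fold change from -0.80 to -0.37, and its p was the 49th smallest of all tested genes. Adh1 held 65.7% of the summed mean normalized counts of the 6 Adh genes.

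The other tested Adh genes lie in the same cluster on chromosome 3, with Adh6a and Adh6b between Adh1 and Adh4. Adh5, the glutathione-dependent formaldehyde dehydrogenase, had a log2 fold change of -0.08 ± 0.05 by the authors' deposited table, with a 95% interval from -0.17 to 0.02. Adh4, the class II enzyme, stood at -0.16 ± 0.16, and Adh7, the class IV retinol dehydrogenase of epithelia, at -0.17 ± 0.30 by the authors' deposited table. All 4 estimates were negative, but only that of Adh1 passed the test, and its interval did not overlap that of Adh5 but did overlap those of Adh4, from -0.48 to 0.15, and Adh7, from -0.75 to 0.41. Differences between genes were not tested. The antisense gene Gm16559 overlaps exons of Adh1, and its mean was 19.9 normalized counts in the authors' deposited table. That mean also depends on how reads in the overlap were counted, which is not stated.

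The retinal and acetaldehyde group, 5 tested Aldh genes, held 2 of the called members. Aldh1b1 (ENSMUSG00000035561, chromosome 4, 45799022 to 45804604), a mitochondrial enzyme for acetaldehyde and other short aldehydes, had a mean of 797.9 normalized counts. Its log2 fold change was -1.10 ± 0.30 by the authors' deposited table (adjusted p 0.0142, DESeq2), so that it fell by 53.3%. Its 95% interval, from -1.68 to -0.52, was the widest among the 25 tested members with a mean of at least 100. Aldh2, the main mitochondrial acetaldehyde dehydrogenase and the nearest relative of Aldh1b1 among the members by coding sequence (70.2% identical bases), was not called. Aldh2 had a log2 fold change of 0.15 ± 0.07 by the authors' deposited table (adjusted p 0.383, DESeq2), at a mean of 32214 normalized counts.

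Aldh1a7 and Aldh1a1 are neighbours on chromosome 19 and near copies of each other. Aldh1a1 encodes the cytosolic retinal dehydrogenase, and Aldh1a7 is its rodent paralog. Their coding sequences were 91.7% identical in GENCODE M21. The first 150 coding bases are shown to let the likeness be seen, with the 10 differing bases in capitals.
Aldh1a7: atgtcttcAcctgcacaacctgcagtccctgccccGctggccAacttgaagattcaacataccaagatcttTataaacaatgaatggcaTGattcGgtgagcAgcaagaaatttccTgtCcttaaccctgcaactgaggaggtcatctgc
Aldh1a1: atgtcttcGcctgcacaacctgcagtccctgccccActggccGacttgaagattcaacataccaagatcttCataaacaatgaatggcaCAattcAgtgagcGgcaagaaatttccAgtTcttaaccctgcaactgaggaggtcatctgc

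Aldh1a7 (ENSMUSG00000024747, chromosome 19, 20692953 to 20727562) had a mean of 3749 normalized counts. Its log2 fold change was -0.44 ± 0.12 by the authors' deposited table (adjusted p 0.0138, DESeq2), a transcript that fell by 26.1%. Aldh1a1 was not called, at a log2 fold change of 0.03 ± 0.11 (SE) and a mean of 29682 normalized counts in the authors' deposited table. The 95% intervals, from -0.67 to -0.21 for Aldh1a7 and from -0.19 to 0.25 for Aldh1a1, did not overlap, while the difference itself was not tested. Of the 50-base stretches of its transcript, Aldh1a7 shared 7.49% with another gene, mostly Aldh1a1, and Aldh1a1 shared 6.54%. Reads from these stretches could be split between the pair or dropped, and both values are uncertain to that extent. Aldh8a1, a further retinal dehydrogenase that also acts in tryptophan breakdown, stood at 0.10 ± 0.06 by the authors' deposited table, short of the threshold.

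The aldehyde and aldose reductases had 1 fall among 6 tested genes. Akr1b3 (ENSMUSG00000001642, chromosome 6, 34302434 to 34317478) encodes aldose reductase, which reduces glucose to sorbitol. Its mean was only 36.5 normalized counts and its log2 fold change -1.10 ± 0.26 by the authors' deposited table (adjusted p 0.00323, DESeq2), and so fell by 53.3%. Its 95% interval ran from -1.61 to -0.58. The Akr1b3 transcript shared 59.9% of its 50-base stretches with other genes, most with Gm6644, so that its count depends on how the authors' counter treated reads with several matches. Of the 4 called genes it had the lowest mean and the largest part of shared stretches.

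Relatives of Akr1b3 and the other reductases did not pass. In the authors' deposited table Akr1b10 had a log2 fold change of -0.30 ± 0.31 and Akr1b8 of 0.19 ± 0.32 (SE), at means of 21.5 and 16.1 normalized counts. Akr1a1, the aldehyde reductase that makes gulonate on the way to vitamin C in mice, was abundant, at 4200 normalized counts, and stood at 0.15 ± 0.06 by the authors' deposited table. Its unadjusted p was 0.0173 and its adjusted p 0.263 (DESeq2). Akr1e1, which reduces anhydrofructose, and Akr7a5, an aflatoxin aldehyde reductase, were at 0.13 ± 0.10 and 0.04 ± 0.08 by the authors' deposited table.

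**Figure D2:**
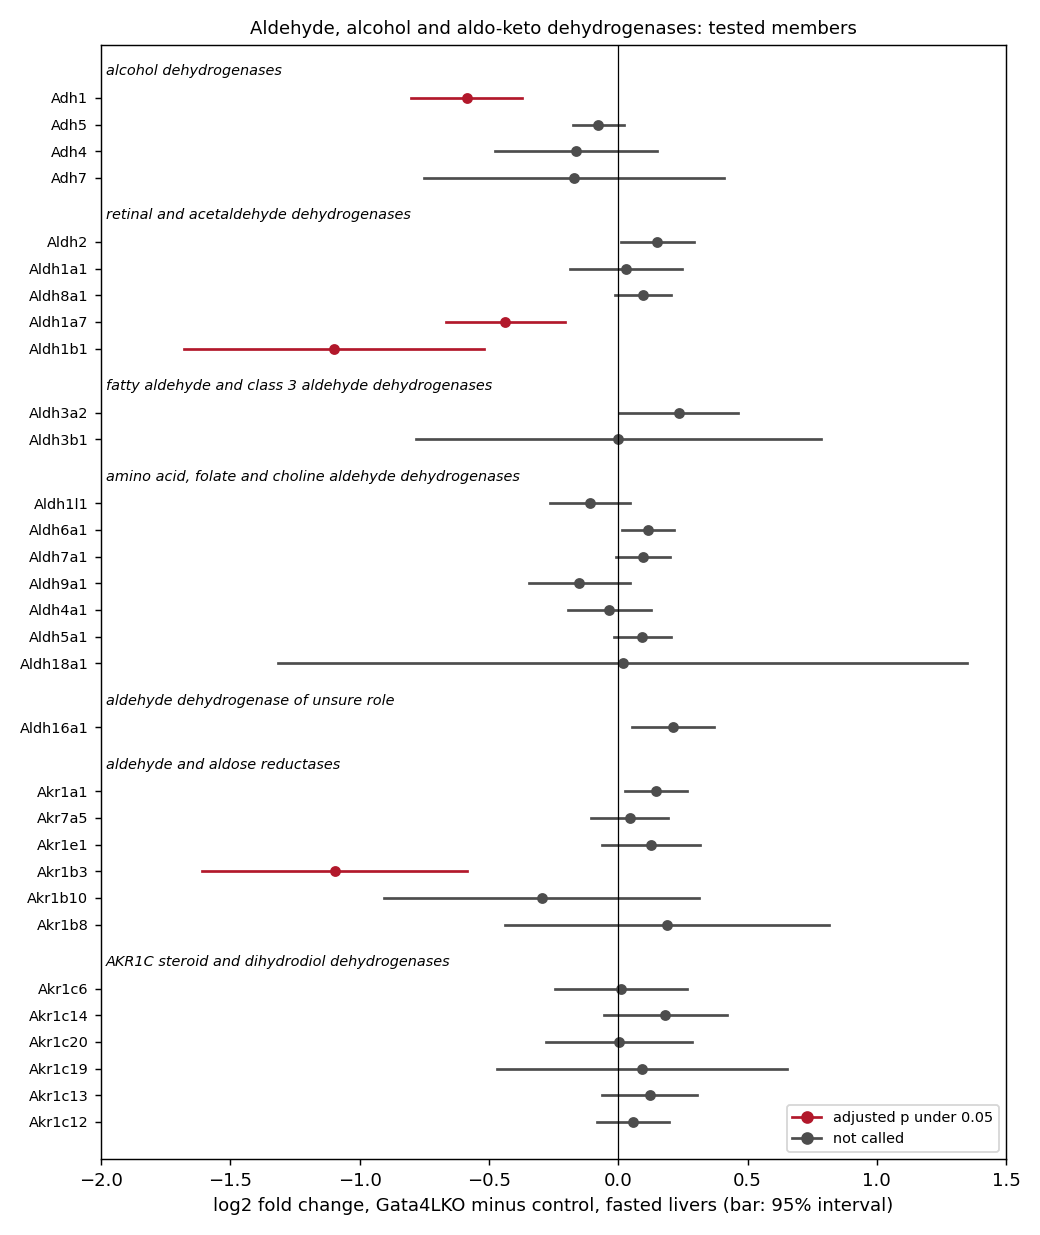
Log2 fold change (Gata4LKO minus control, fasted livers) of the 31 tested members, grouped by role and ordered by mean within each group; points are deposited estimates, bars their 95% intervals, red marks an adjusted p under 0.05. Adh1, Aldh1a7, Aldh1b1 and Akr1b3 lie left of 0, between -0.44 and -1.10, and the other 27 estimates lie between -0.30 and 0.23.

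The AKR1C genes, a cluster of 8 members on chromosome 13 that act on steroids and dihydrodiols, had 0 calls among 6 tested by DESeq2, and 0 had an unadjusted p under 0.05. Akr1c6, an estradiol dehydrogenase and the most abundant of them at 14256 normalized counts, had a log2 fold change of 0.01 ± 0.13 by the authors' deposited table, with a 95% interval from -0.25 to 0.27. Akr1c14, which reduces steroid ketones, stood at 0.18 ± 0.12 by the authors' deposited table. Akr1c13 was at 0.12 ± 0.09, Akr1c12 at 0.06 ± 0.07, Akr1c20 at 0.00 ± 0.14 and Akr1c19 at 0.09 ± 0.29 by the authors' deposited table. All 6 deposited estimates were positive, though that of Akr1c20 was -0.01 when centred on the median of all tested genes, and each interval held 0. Akr1c12 and Akr1c13 have coding sequences 96.2% identical. Each shared 28.6% of its 50-base stretches with other genes, most with the other of the pair, so their values may be mixed.

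**Figure D3:**
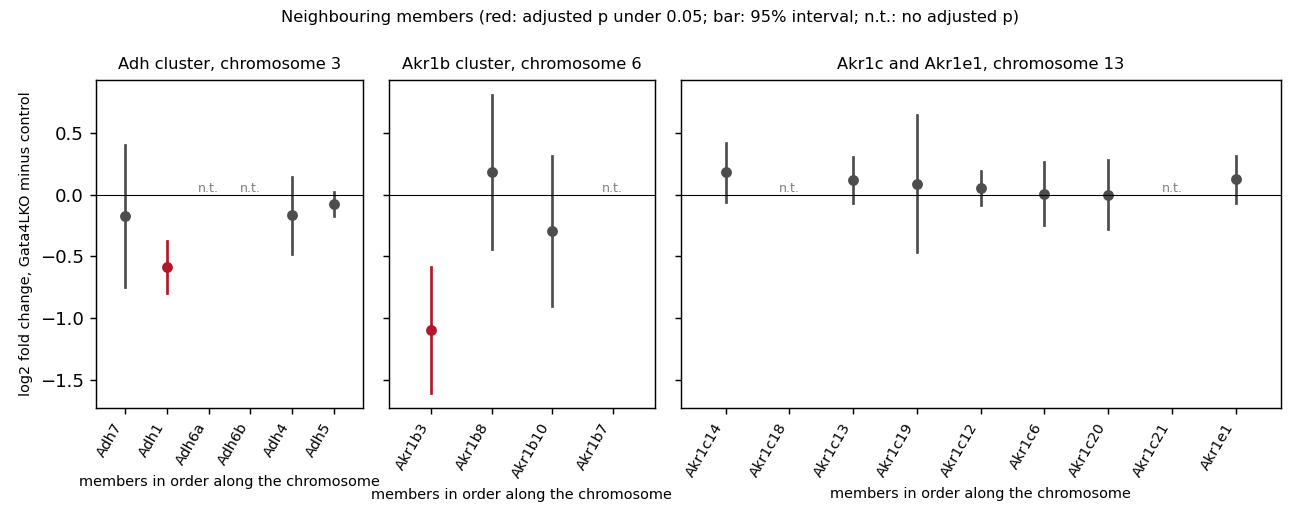
Log2 fold change with its 95% interval for the members of the Adh, Akr1b and Akr1c clusters, in order along the chromosome (n.t., no adjusted p). Adh1 and Akr1b3, in red, are the called genes of their clusters, at -0.59 and -1.10, and the Akr1c row lies between 0.00 and 0.18.

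Aldehyde dehydrogenases of amino acid, folate and choline metabolism had 0 calls among 7 tested by DESeq2, with 1 at an unadjusted p under 0.05. That gene was Aldh6a1, the methylmalonate semialdehyde dehydrogenase of valine breakdown, at a log2 fold change of 0.11 ± 0.05 by the authors' deposited table (adjusted p 0.320, DESeq2). Aldh1l1, the folate enzyme formyltetrahydrofolate dehydrogenase, had a mean of 21295 normalized counts and stood at -0.11 ± 0.08 by the authors' deposited table. Aldh7a1 of lysine breakdown, Aldh5a1 of the breakdown of the transmitter GABA and Aldh4a1 of proline breakdown were at 0.09 ± 0.05, 0.09 ± 0.06 and -0.03 ± 0.08 by the authors' deposited table. Aldh4a1 shared 45.0% of its 50-base stretches with other genes, most with the overlapping gene Gm21969, whose mean was 1.62 normalized counts. Aldh9a1, which acts in carnitine synthesis, was at -0.15 ± 0.10 by the authors' deposited table. Aldh18a1, which makes the precursor of proline, had a mean of 10.7 normalized counts and an interval from -1.32 to 1.35, which leaves room for large changes.

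The remaining tested Aldh genes did not pass. Aldh3a2, the fatty aldehyde dehydrogenase, had a log2 fold change of 0.23 ± 0.12 by the authors' deposited table (unadjusted p 0.0463, adjusted p 0.425, DESeq2). Aldh16a1, whose catalytic role is unsure, stood at 0.21 ± 0.08 by the authors' deposited table (unadjusted p 0.00849, adjusted p 0.179, DESeq2). The gene Pih1d1 overlaps its exons on the opposite strand, and without the strand setting of the counts their reads cannot be told apart. Exons of Adh1, Adh7, Aldh1l1, Aldh2, Aldh5a1, Aldh6a1 and Aldh7a1 are also overlapped by a gene on the opposite strand, with the same limit. Aldh3b1 was at 0.00 ± 0.40 by the authors' deposited table, at a mean of 16.7 normalized counts. With Aldh16a1, Akr1a1, Aldh6a1, Aldh2 and Aldh3a2, the 5 members higher at an unadjusted p under 0.05 had estimates between 0.11 and 0.23, and none passed the adjustment.

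How closely the data bounded the changes differed between members. Of the 27 members that did not pass, 21 had a 95% interval within 0.5 of 0 on the log2 scale, and 9 of these within 0.25. The 6 others were Adh7, Aldh18a1, Aldh3b1, Akr1b8 and Akr1b10, each with a mean under 100, and Akr1c19. Standard errors of members with a mean of at least 100 lay between 0.05 and 0.30 on the log2 scale. A bound of 0.5 is wider than the called fall of Aldh1a7, at a log2 fold change of -0.44. An interval within that bound therefore does not show that a member was unchanged.

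**Figure D4:**
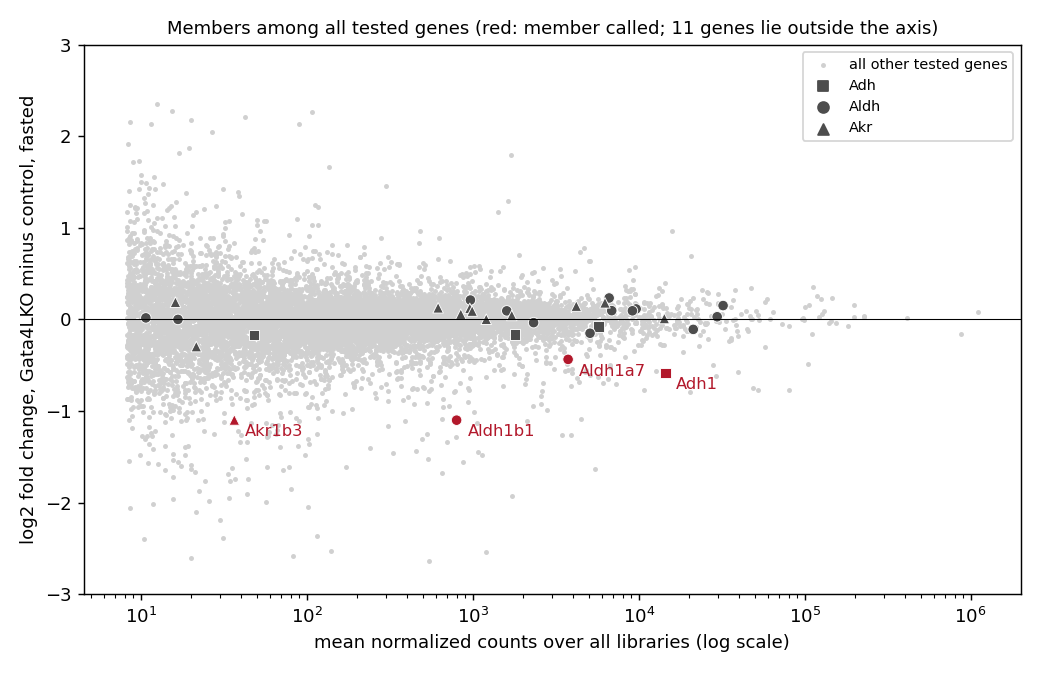
Log2 fold change (Gata4LKO minus control, fasted livers) against mean normalized counts (log scale) for all tested genes, with members as squares (Adh), circles (Aldh) and triangles (Akr); red marks the called members. Adh1 lies at a mean of 14493 and Akr1b3 at 36.5, and 11 genes lie beyond the axis limits of 3 and -3.

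The 10 members with no adjusted p were scarce, with means between 0.194 and 5.83 normalized counts. They were Adh6a, Adh6b, Aldh1a2, Aldh1a3, Aldh1l2, Aldh3a1, Aldh3b3, Akr1b7, Akr1c18 and Akr1c21. Among them are Aldh1a2 and Aldh1a3, the retinoic acid-making enzymes of embryos and other tissues, and Akr1c18, the progesterone-inactivating enzyme of the ovary. Their deposited unadjusted p ran from 0.151 to 0.989 (DESeq2), and each 95% interval of the log2 fold change held 0.

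Genes that work beside the members were counted from 5 pathway lists. In retinoid metabolism 0 of 23 tested genes were called by DESeq2, with 3 at an unadjusted p under 0.05 and a median log2 fold change of -0.04. Dhrs4, a retinal reductase, stood at 0.17 ± 0.07 and Bco2, which cleaves carotenoids, at -0.20 ± 0.10 by the authors' deposited table.

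Among other enzymes of carbonyl and ethanol detoxification, 2 of 17 tested genes rose and 0 fell, beside 0.585% of all tested genes called higher. At an unadjusted p under 0.05 stood 8 of the 17, and the list's log2 fold changes ran from -0.41 to 0.67. The count was 4 with a threshold of 0.1, and also when p was adjusted over genes with a mean of 100 or more. Hsd11b1, a short-chain dehydrogenase that activates glucocorticoids, stood at 0.54 ± 0.06 by the authors' deposited table (adjusted p 8.01e-17, DESeq2). Gsta4, which conjugates the lipid aldehyde hydroxynonenal to glutathione, was at 0.66 ± 0.12 by the authors' deposited table (adjusted p 6.69e-06, DESeq2). The quinone reductase Nqo1, the esterase Esd and the glyoxalase Glo1 were at 0.67 ± 0.21, 0.20 ± 0.06 and 0.27 ± 0.09 by the authors' deposited table, all short of the threshold, with adjusted p of 0.0513, 0.0539 and 0.107 (DESeq2). The list's median log2 fold change was 0.01.

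The next 3 lists are set beside 1.60% of all tested genes called lower. In folate and choline oxidation 2 of 17 tested genes fell and 0 rose. Both were betaine-homocysteine methyltransferases, Bhmt at -0.77 ± 0.20 and Bhmt2 at -0.39 ± 0.09 by the authors' deposited table (adjusted p 0.00736 and 0.00156, DESeq2). Of 9 tested genes of ascorbate, glucuronate and polyol metabolism 1 fell, Gulo, which completes vitamin C synthesis downstream of Akr1a1, at -0.50 ± 0.10 by the authors' deposited table (adjusted p 0.000296, DESeq2). Of 21 tested genes of proline, lysine, GABA and valine breakdown 1 fell, Aadat, the aminoadipate aminotransferase of lysine breakdown, at -0.37 ± 0.11 by the authors' deposited table (adjusted p 0.0316, DESeq2). Aadat no longer passed when the p was adjusted over every gene that has one. The medians of these 3 lists were 0.04, -0.05 and -0.03 on the log2 scale.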

How the data were processed

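Per the labels' protocols, liver RNA was made into libraries with a stranded KAPA kit. The submitters' processing notes name FastQC, STAR 2.6.0c, mm10 and DESeq2 as the authors' tools. Which counter, strand setting and annotation were used is not stated in those notes. The one file is the authors' deposited results table. Its columns are, per the file headers, a mean expression signal (counts divided by size factors, averaged over libraries), the log2 fold change and its standard error, a Wald score, the p-values and the adjusted p-values. The adjustment is Benjamini-Hochberg over 13335 genes. Depth per library is unknown: the deposited means sum to 1.80e+07 normalized counts, with relative size factors from 0.905 to 1.10.

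Which groups were compared was worked out from genes with 1 read in 1 of the 15 libraries. A ridge-penalised negative binomial fit under 8 readings of an interaction model matched the deposited estimates within 1.36e-09 when fasted controls were the baseline, and within 2.79e-05 at best otherwise. This leaves the effect of genotype in fasted livers or that of refeeding in controls, since both compare 4 with 4 libraries. The effect of genotype was taken because the table is named for it, although Gata4 was not lower under that reading. All 15 libraries entered the authors' model.

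Intervals (95%), levels per kb, other adjustments, motif counts and identities were computed in Python 3.11.15 with scipy 1.17.1 and Biopython 1.88. Only the adjustment and the intervals were checked on simulated data. Positions and transcripts are of GENCODE M21 (mm10), promoters of RefSeq (33 of 41 members matched). Shared stretches were counted at 50 bases, a length chosen here. Every member with an adjusted p is named, and in other lists every called gene and up to 3 more of smallest p; 1 such gene is not reported here. Gm16559, Gm21969 and Pih1d1 were named after their values were seen. Gm6644 was named for its shared stretches, and no value under that symbol was available. Members and lists were chosen with earlier results of these data known. The sample titles carry a number that all mice of a group share and no other group has; its meaning is not stated, and what it stands for cannot be told apart from the group. Each p-value sets a log2 fold change against the standard error of the authors' model, which rests on the spread between these samples.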

Additional observations from a re-analysis of the deposited data

How the results depend on the processing

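All settings were planned. The count of 4 called members stayed at 4 when p was adjusted over all genes that have one or over those with a mean of 10 or more. It also stayed at 4 over protein-coding genes and with a threshold of 0.1. In each of these settings the called members were again Adh1, Akr1b3, Aldh1a7 and Aldh1b1. Keeping every row of a repeated symbol could not change the count, since no member symbol was repeated. Over genes with a mean of 100 or more the count was 3, since Akr1b3 lies below that mean. A log2 fold change past 0.5 gave 3, all but Aldh1a7. With a threshold of 0.01 the count was 2, Adh1 and Akr1b3. Centring on the median of all tested genes, 0.01 on the log2 scale, changed no call and no called direction among members. The 7 calls in the pathway and cell type lists numbered between 6 and 9 under the same adjustments and thresholds.

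No paired analysis was possible because per-sample values are not part of the deposited table. Leaving out single livers was not run for the same reason. Low means limit Aldh18a1, Aldh3b1, Akr1b8, Akr1b10, Adh7 and Akr1b3, the tested members with a mean under 100.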
